A study of Caenorhabditis elegans with 2 samples.

Results

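The regions described here are SOX-2 ChIP-seq peaks that sit at the promoters of protein-coding genes in late C. elegans embryos. A peak was a member if the annotation placed the 5′ end of a protein-coding transcript such that the summit fell between 1000 bp before it and 200 bp past it, and if no tRNA, snoRNA or snRNA gene lay within 500 bp of it. Of 8486 peaks on the nuclear chromosomes in the ranked list made from both replicates, 2850 (33.6%) met this rule. Of these members, 249 (8.74%) were also in the thresholded list of the series, whose peaks have an irreproducible discovery rate (IDR, which grows as a peak's rank differs between repeats) of at most 0.01. Over all nuclear ranked peaks that share was 7.78%. Another 2598 members did not reach the threshold and are called below threshold. The remaining 3 passed the IDR value but were not in the thresholded list, and they are kept apart. A further 128 peaks in promoter windows lay near a small RNA gene and are not members, and 48 of those were thresholded.

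The study held 1 group of 2 biological replicates and no second condition. Both were whole late embryos at 3.5 hours, collected by egg bleaching, of the strain RW12244, in which CRISPR inserted a TY1::EGFP::3xFLAG tag into the endogenous sox-2 gene on the X chromosome (allele st12244). An anti-GFP antibody pulled the tagged protein down from sonicated chromatin with a fragment range of 200 to 800 bp, so the cells of all tissues that carry SOX-2 are pooled in each sample. A control named in the labels was not analysed here, and the deposited lists hold no read counts, so the depth behind each value is unknown.

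SOX-2 is a transcription factor with an HMG box, a domain that binds the minor groove of short A/T-rich sites of the form CATTGT or CTTTGT and bends the DNA. In worms, sox-2 is known for its part in neuronal progenitors and in the choice between neuron classes. The worm genome is compact, and many genes lie head to head, so that the stretch between their 5′ ends serves as a divergent promoter of both. Many worm transcripts are trans-spliced to a leader RNA, and an annotated 5′ end can then lie downstream of the site where transcription starts.

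The first sequences are shown because they carry the SOX-type site at strong thresholded peaks and at sox-2 itself. They are a selection: the peaks at rpl-12 and at chrIV:15646822-15646898, of similar strength, also have the site and are not shown. Each is the 101 bases around the summit from the NCBI WBcel235 assembly, which is the assembly of ce11, written 5′ to 3′ in the direction of the nearest gene. Capitals mark CATTGT or its reverse complement ACAATG. Where 2 genes are named, the peak lies in their divergent promoter and the first is the nearer.
F44E5.4 and F44E5.5, chrII:11759380-11759480, minus strand: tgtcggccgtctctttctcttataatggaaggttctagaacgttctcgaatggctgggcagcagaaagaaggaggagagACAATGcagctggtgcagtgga
his-61 and his-62, chrIV:7486320-7486420, minus strand: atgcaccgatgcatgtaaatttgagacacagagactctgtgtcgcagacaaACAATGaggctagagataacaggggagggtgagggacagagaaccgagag
C36E6.2, chrX:17451554-17451654, plus strand: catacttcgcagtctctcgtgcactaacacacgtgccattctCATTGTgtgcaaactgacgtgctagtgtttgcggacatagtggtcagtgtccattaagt
rpl-15 and K11H12.8, chrIV:654878-654978, minus strand: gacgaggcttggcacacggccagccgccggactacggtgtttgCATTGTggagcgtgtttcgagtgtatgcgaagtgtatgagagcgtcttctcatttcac
B0495.9 and sre-1, chrII:7708735-7708835, minus strand: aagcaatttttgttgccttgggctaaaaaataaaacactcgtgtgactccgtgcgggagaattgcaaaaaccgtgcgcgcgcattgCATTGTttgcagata
ipla-3, chrV:20729062-20729162, minus strand: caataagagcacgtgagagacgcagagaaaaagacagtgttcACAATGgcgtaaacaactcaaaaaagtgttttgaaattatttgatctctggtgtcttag
sox-2, chrX:7463790-7463890, minus strand: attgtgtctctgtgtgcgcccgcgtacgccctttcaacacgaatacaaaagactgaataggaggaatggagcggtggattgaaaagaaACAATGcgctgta

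The second set shows windows of 4 of the 7 strongest thresholded members, all without that site. Of the other 3, F44E5.4 is in the first set, and T13C5.6 and ears-2 also lack the site and are not shown. Capitals mark CGCGCA and GCGCAC and GACGCA on either strand. These are among the 6-base words whose share at thresholded summits most exceeded that in their flanks. They were picked for display after their counts were seen. The window at K12H4.5 holds none of them.
atx-2 and ecps-1, chrIII:10461269-10461369, plus strand: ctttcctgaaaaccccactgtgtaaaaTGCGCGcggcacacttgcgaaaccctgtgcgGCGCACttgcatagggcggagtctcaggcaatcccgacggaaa
K12H4.5, chrIII:8043915-8044015, plus strand: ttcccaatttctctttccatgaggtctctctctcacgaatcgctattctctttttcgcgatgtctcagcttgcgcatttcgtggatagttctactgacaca
cox-5A, chrIII:12905158-12905258, plus strand: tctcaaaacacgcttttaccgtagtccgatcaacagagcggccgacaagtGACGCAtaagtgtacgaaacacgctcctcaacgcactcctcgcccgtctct
rpl-3, chrIII:3867526-3867626, plus strand: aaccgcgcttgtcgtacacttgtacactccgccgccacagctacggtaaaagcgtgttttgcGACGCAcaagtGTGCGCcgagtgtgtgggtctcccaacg

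Thresholded peaks were more frequent at divergent promoters. A member was called single when 1 protein-coding gene had its promoter window over the summit, and divergent when 2 genes on opposite strands pointed away from each other. There were 2329 single members, of which 165 were thresholded (7.09%, Wilson 95% interval 6.11 to 8.20), and 476 divergent members, of which 78 were thresholded (16.4%, 13.3 to 19.98). The difference was 9.30 percentage points (6.05 to 13.0), with a p of 1.1e-09 by a two-sided Fisher's exact test and 4.4e-09 after Benjamini-Hochberg adjustment over 4 compared shares. Since peaks are not replicates, the p-values here describe these lists and say nothing of the spread between cultures. Another 43 members lay at 5′ ends of genes on the same strand, 6 of them thresholded (13.95%, 6.56 to 27.3). The remaining 2 had another arrangement, with none thresholded.

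Each replicate's own list gave the same order. Of the single members, 5.67% overlapped a thresholded peak of replicate 1 and 5.93% one of replicate 2. Of the divergent members, 12.4% did so in replicate 1 and 13.0% in replicate 2. In the conservative list of the series the shares were 7.34% and 15.5%, and 18.6% for the 43 same-strand members. That list overlapped 207 of the 249 thresholded members and 46 of the 2598 below threshold, so the lists differed in which members passed. The 6 chromosomes differed in how many members were divergent, from 6.26% of those on X to 21.95% of those on III. On the autosomes alone, 6.59% of single and 16.4% of divergent members were thresholded, and on X the values were 9.07% (42 of 463) and 16.1% (5 of 31).

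**Figure D1:**
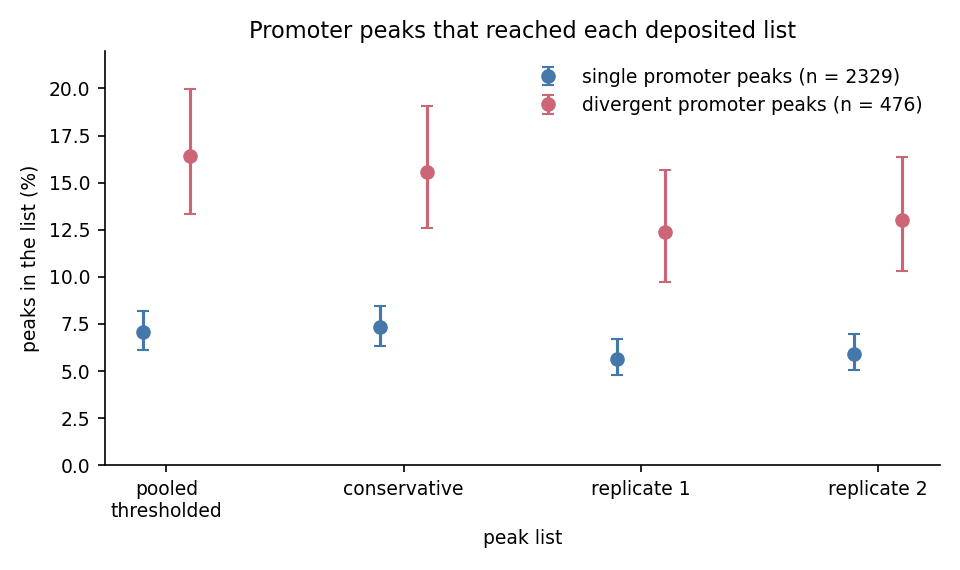
Share of single and divergent promoter peaks (y axis, percent) found in the pooled thresholded list, the conservative list and the thresholded list of each replicate (x axis). Points are shares and bars are Wilson 95% intervals over peaks; the divergent points, between 12.4% and 16.4%, lie above the single points, between 5.67% and 7.34%, in all 4 lists.

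Once thresholded, peaks of both promoter types had close medians of signal, which were not tested. The median pooled signal was 97.1 at 165 single and 96.2 at 78 divergent thresholded members, with upper quartiles of 121.8 and 127.2. Below the threshold the medians were 40.1 and 44.2. Over all single and all divergent members they were 41.0 and 47.5, with upper quartiles of 50.8 and 64.4. Of the 100 thresholded members with the highest signal, 33 were divergent, against 31.3% of all thresholded members. This signal was deposited by the authors and served here only to rank and describe peaks.

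Thresholded summits lay close upstream of a 5′ end more often than below-threshold summits did. Within 250 bp upstream were 123 of 249 thresholded members (49.4%) and 923 of 2598 below-threshold members (35.5%). This difference of 13.9 percentage points (7.44 to 20.3) had a p of 2.46e-05 by a two-sided Fisher's exact test and an adjusted p of 4.91e-05. The median summit stood 216 bp upstream in the thresholded set and 250 bp upstream in the other. Within a promoter type the medians were closer, at 298 and 301 bp upstream for single and 140.5 and 134 bp upstream for divergent members. Divergent members made up 31.3% of the thresholded and 15.3% of the below-threshold set. The share within 250 bp was not tested within a promoter type, and these medians do not give it. Single members 250 to 101 bp upstream were thresholded in 11.0% and those 100 to 1 bp upstream in 5.28%. The thresholded share of all single members was 7.09%. For divergent members the same values were 17.03%, 25 of 125 and 16.4%. At or downstream of the 5′ end were 11 thresholded summits (4.42%, 2.48 to 7.74) and 380 below-threshold summits (14.6%, 13.3 to 16.04).

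A divergent summit is measured to the nearer of its 5′ ends, which shortens its distance by construction, so the promoter types were also read within distance classes. From 100 to 1 bp upstream, 5.28% of 265 single and 25 of 125 divergent members were thresholded. From 250 to 101 bp upstream the shares were 11.0% of 453 and 17.03% of 182, and these Wilson intervals overlapped (8.47 to 14.3 and 12.3 to 23.2). From 500 to 251 bp upstream they were 9.40% of 553 and 21.2% of 80. Farther out, 43 of 743 single members (5.79%) were thresholded and 0 of 28 divergent members, for which the Wilson interval reached 12.1%. At or downstream of the 5′ end the shares were 1.90% of 315 and 8.20% of 61. The intervals of the promoter types also overlapped in these last 2 classes, and they did not in the classes from 100 to 1 and from 500 to 251 bp upstream.

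**Figure D2:**
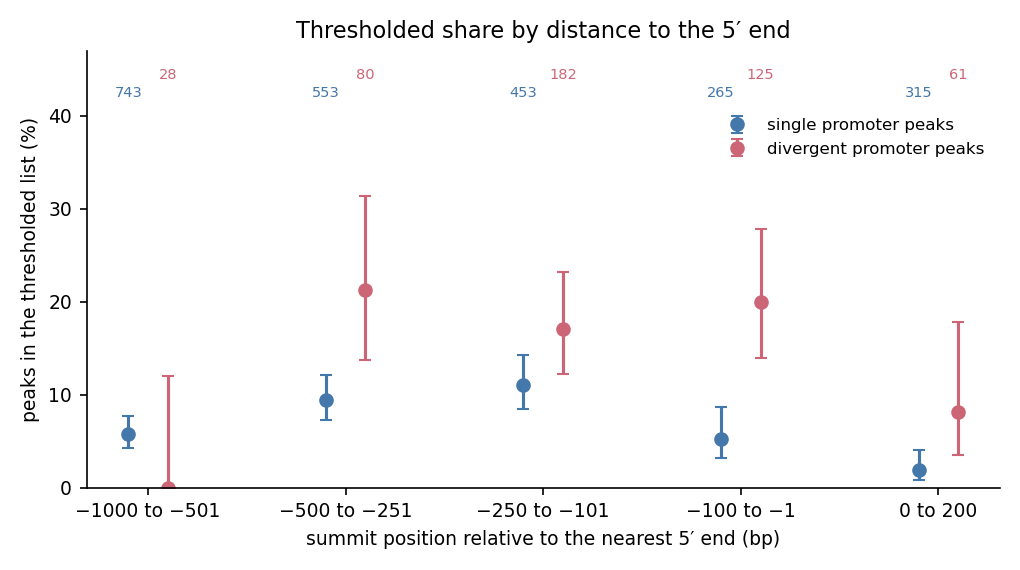
Share of promoter peaks in the thresholded list (y axis, percent) by the position of the summit relative to the nearest annotated 5′ end (x axis, bp, negative upstream), for single and divergent promoters. Points are shares, bars are Wilson 95% intervals and the numbers above are peaks per class; the divergent share is the higher one in all classes but the farthest, where 0 of 28 divergent peaks were thresholded.

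Most divergent summits sat between both 5′ ends. This held for 73 of 78 thresholded (93.6%) and 342 of 398 below-threshold divergent members (85.9%). The 5′ ends of a thresholded pair were 60 to 1353 bp apart, with a median of 534.5 bp, and the median of the other pairs was 542.5 bp. Some nearest genes had their 5′ end within 500 bp downstream of the 3′ end of a coding gene on the same strand. This layout, that of downstream operon genes, held at 16 thresholded (6.43%, 3.99 to 10.2) and 354 below-threshold members (13.6%). T13C5.6, cyc-1 and pbs-3, described below, are among these genes at thresholded peaks.

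Both replicates contained nearly all of the thresholded promoter peaks, but many passed the threshold in 1 replicate alone. Of the 249, 242 had a summit within 100 bp in the ranked list of each replicate. By the replicates' own thresholded lists, 118 members passed in both, 51 in replicate 1 alone, 47 in replicate 2 alone and 33 in neither. Over the 242 regions the replicate signals had a Spearman rho of 0.454 and a Pearson r of 0.532 on the log2 scale, given as a description because the regions share their libraries. Within a region the SD of the 2 replicates was 15.5% of their mean at the median, and replicate 1 was the higher in 131.

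**Figure D3:**
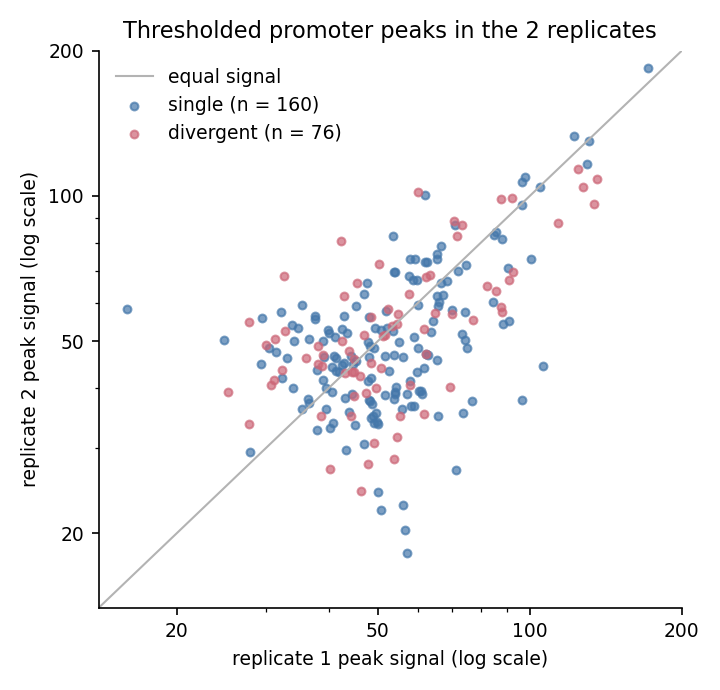
Peak signal of the thresholded promoter peaks in replicate 1 (x axis) and replicate 2 (y axis), both on log scales, for the 160 single and 76 divergent peaks matched in both replicates; the 6 same-strand peaks are not drawn. Each point is a peak and the line marks equal signal; the points scatter on both sides of the line, with replicate 1 the higher in 131 of the 242 matched peaks.

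The strongest thresholded promoter peak lay 522 bp upstream of K12H4.5, on chromosome III, with signals of 171.4 in replicate 1 and 184.3 in replicate 2 (mean 177.8 ± 9.12, SD, n = 2). The next, 283 bp upstream of cox-5A, which encodes a subunit of cytochrome c oxidase, had 130.9 and 130.1. The peak 278 bp upstream of rpl-3, a gene for a protein of the large ribosomal subunit, had 122.5 and 132.9. T13C5.6 followed, with a summit 197 bp upstream and signals of 129.7 and 116.3. These 4 promoters are single.

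Among divergent promoters the strongest peak lay between F44E5.4 and F44E5.5, heat-inducible HSP70 genes whose 5′ ends are 351 bp apart, with 135.7 in replicate 1 and 108.4 in replicate 2. The genes are close copies of each other, but only 4.22% of the 36-base words in the summit window recurred in the genome. The peak between ears-2, a glutamyl-tRNA synthetase gene, and uncp-18 had 127.3 and 104.6. That between atx-2, the ataxin-2 homologue, and ecps-1 had 134.1 and 96.1. In all 3 the higher value was that of replicate 1.

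Further divergent peaks of this strength stood between tasp-1, a taspase homologue, and K01G5.10 (124.8 and 114.0), between his-61 and his-62 (113.5 and 87.7), and between Y17G9B.5 and the ribosomal protein gene rpl-20 (92.2 and 99.2). The divergent peak at chrIV:15646822-15646898 had 91.2 and 67.0, and 34.3% of its 36-base words recurred elsewhere. The peak between pcrg-1 and E04F6.6 had 87.7 and 98.8. Its summit lies in mrpr-1, the gene of the RNase MRP RNA, a class of small RNA gene that the rule did not exclude, so the divergent pair is not the sole annotation there.

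The remaining single members among the 15 strongest were K05C4.7 (98.0 in replicate 1 and 109.3 in replicate 2), the 14-3-3 gene ftt-2 (96.7 and 107.1), the splicing factor gene plrg-1 (104.7 and 104.4), and cdc-48.1, which encodes an AAA ATPase that extracts ubiquitinated proteins (96.6 and 95.9). The summits of T13C5.6 and ftt-2 lie in annotated ncRNA genes. Over all thresholded members, 22 summits (8.84%, 5.91 to 13.0) lay in an annotated ncRNA gene, against 122 below threshold (4.70%, 3.95 to 5.58).

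The promoter of sox-2 itself held a thresholded peak. Its summit was 104 bp upstream, with 67.2 in replicate 1 and 62.4 in replicate 2 (mean 64.8 ± 3.42, SD, n = 2), and the window held CATTGT. The summit also lies in the ncRNA genes K08A8.23 and K08A8.26, on opposite strands. Its pooled signal of 133.3 was above the median of 96.7 and above the upper quartile of 121.8 of the thresholded members.

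**Figure D4:**
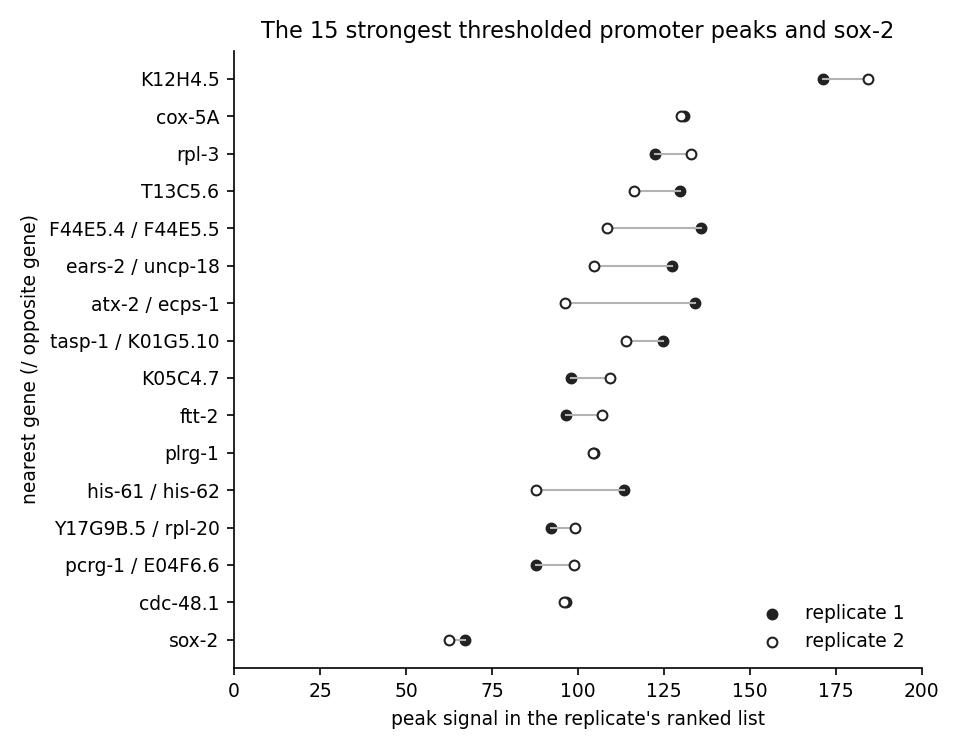
Peak signal in replicate 1 (filled) and replicate 2 (open) for the 15 thresholded promoter peaks with the highest pooled signal, in that order, and for sox-2 (x axis, the authors' signal in each replicate's ranked list; y axis, nearest gene and the opposite gene of a divergent promoter). K12H4.5 stands highest with 171.4 and 184.3, and sox-2 lies at 67.2 and 62.4.

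No gene had 3 thresholded promoter peaks, and 4 had 2. These were eel-1, gei-4, daf-19 and bet-2, named after their values were seen. daf-19 encodes the RFX factor of ciliated neurons, and its peaks lie at separate transcript starts, with summits at positions 10163706 and 10169689 of chromosome II. The first, 130 bp upstream of its 5′ end, had 29.5 in replicate 1 and 55.8 in replicate 2, and the second, 343 bp upstream of another 5′ end, had 49.7 and 34.1. The replicates ranked these daf-19 peaks in opposite orders. The eel-1 peaks, 798 and 368 bp upstream of the same 5′ end, had 71.0 and 59.7 in replicate 1 and 87.2 and 66.9 in replicate 2.

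The SOX-type site was more frequent at thresholded summits than beside them. CATTGT or CTTTGT, written together as CWTTGT and looked for on either strand up to 50 bp from the summit, was present at 62 of 249 thresholded members (24.9%, 19.9 to 30.6). In the window 300 bp upstream of the summit, by the strand of the nearest gene, it was present in 26 (10.4%). This difference of 14.5 percentage points had p = 1.41e-05 by a two-sided exact McNemar test. There were 52 members with the site at the summit only and 16 with it in the flank only. At divergent promoters this flank lies toward the opposite gene and can fall inside it. The site was at 24.4% of summits and 8.97% of flanks there, and at 25.5% and 10.9% for single promoters. Below the threshold 436 of 2598 summits had the site (16.8%), which was 8.12 points lower than at thresholded summits (2.94 to 14.01, Fisher's exact p = 0.00214, adjusted p = 0.00285). Of 19973 protein-coding genes, 11.96% had it in an equally wide window placed 248 bp upstream of their most upstream 5′ end.

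The difference came with CATTGT. That form alone was at 50 thresholded summits (20.1%), 13 of their flanks (5.22%), 268 below-threshold summits (10.3%) and 6.22% of all promoters. CTTTGT alone was at 15 thresholded summits (6.02%), 14 flanks (5.62%), 191 below-threshold summits (7.35%) and 6.14% of all promoters, and neither comparison passed its test (McNemar p = 1.0; Fisher's exact adjusted p = 0.696). With windows of 25 bp to each side, the shares of CWTTGT at thresholded and below-threshold summits, 11.2% and 8.24%, did not pass Fisher's exact test either (adjusted p = 0.161).

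Single and divergent promoters had similar shares of the site, though the comparison was imprecise. CWTTGT was at 42 of 165 single (25.5%) and 19 of 78 divergent thresholded summits (24.4%), a difference of −1.10 points with an interval from −11.96 to 11.1 (Fisher's exact p = 1.0). Thresholded members with CATTGT had a median pooled signal of 101.0 and those without 96.5. Neither form was in this window at 187 thresholded summits, among them 13 of the 15 strongest. Among the members shown above with CATTGT, the single promoter of C36E6.2 had 62.1 in replicate 1 and 100.3 in replicate 2, the divergent promoter of B0495.9 and the chemoreceptor gene sre-1 had 71.7 and 82.8, and the peak 150 bp downstream of the 5′ end of ipla-3 had 66.8 and 78.6. The signal was higher in replicate 2 at all 3.

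Other short words differed more between thresholded summits and their flanks than CATTGT did. All 2080 words of 6 bases were compared, each merged with its reverse complement. The largest difference was that of AAAATT, at 13.2% of thresholded summits and 42.97% of their far flanks. Among words more frequent at the summits, CGCGCA had the largest difference, with 46 thresholded summits (18.5%) and 2 far flanks (0.803%). It was at 6.93% of below-threshold summits and 2.16% of all promoters. AGAGAG followed with 22.9% against 6.43%, then GCGCAC with 19.3% against 2.81%, GACGCA with 17.3% against 1.20%, CACACA with 20.9% against 5.62% and CGCACA with 20.1% against 4.82%. CATTGT stood next. These words overlap one another and were read off the same windows, so they are given with no test.

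The shares by promoter type are given without a test. GCGCAC was at 21 of 78 divergent (26.9%, Wilson interval 18.3 to 37.7) and 26 of 165 single thresholded summits (15.8%, 11.0 to 22.1), and AGAGAG at 10 divergent (12.8%, 7.11 to 22.02) and 45 single ones (27.3%, 21.1 to 34.5). At least 1 of the 3 G/C-rich words marked in the second set of sequences was present at 103 thresholded summits (41.4%), 12 of their flanks (4.82%) and 465 below-threshold summits (17.9%). Of the 50 thresholded members with CATTGT, 23 also had 1 of these words, and of the 199 without it 80 did. In each replicate's own thresholded list the share of members with 1 of them was 40.1% in replicate 1 and 44.2% in replicate 2.

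Base composition differed in the same windows. The median GC content within 100 bp of the summit was 45.3% in thresholded and 40.3% in below-threshold members, and 45.8% at single and 42.3% at divergent thresholded promoters. AAAATT was at 33 thresholded summits (13.2%) and 107 of their far flanks (42.97%). The part of GC content in the shares of other words was not tested.

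The nearest genes of thresholded promoter peaks numbered 245 of 19973 protein-coding genes (1.23%), and 2591 (13.0%) were nearest to a member of any rank. Counting every gene whose promoter window held a thresholded summit gave 337 genes. Of the 245, 79 were in at least 1 of 43 gene lists made from gene names and known roles, and 166 were in none. The lists are described by counts alone, beside these backgrounds. The highest shares were those of the ribosomal protein, histone, respiratory chain, chaperone and proteasome lists. In 11 lists no gene was nearest to a thresholded member, and 19 lists in all were below the share of all genes.

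Ribosomal protein genes had 8 of 84 (9.52%) nearest to a thresholded peak, and 22 (26.2%) nearest to one of any rank. After rpl-3, the strongest were rpl-35 (100.4 in replicate 1 and 74.0 in replicate 2) and rpl-15 (59.96 and 102.0), which differed between replicates in opposite directions. rps-14 shares its divergent promoter with rpl-36. Another 5 ribosomal protein genes had their 5′ end in the window of a thresholded peak without being the nearest gene. This brings the count to 13 of 84, against 337 of all 19973 genes by that rule. None of the 70 genes for mitochondrial ribosomal proteins was nearest to a thresholded peak, although 13 (18.6%) were nearest to a ranked one. The same held for the 62 genes of the spliceosome list, with 13 at a ranked peak, although 4 of them lay on the farther side of a divergent thresholded peak. At the 1.23% share of all genes, lists of 70 and 62 genes would hold few such genes or none, so nothing is read from this. The transcription machinery list had 1 of 84 (1.19%), and 4 when every gene in the window of a thresholded peak was counted.

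All 5 histone genes nearest to a thresholded peak lay in divergent histone pairs. Thus 10 of 61 histone genes had such a peak in their window, against 337 of all 19973 genes. Besides his-61 and his-62, the pair his-32 and his-31 had 73.3 in replicate 1 and 87.2 in replicate 2, and the pair his-68 and his-67 had 42.2 and 80.8. The pairs his-64 and his-63 (61.8 and 35.4) and his-5 and his-6 (52.4 and 58.3) completed the set. The his-68 pair passed the threshold in replicate 2 alone. Histone genes occur in near-identical copies, and 19.3% of the 36-base words around the his-64 summit and 30.7% around the his-5 summit recurred in the genome, while none did around the other 3. Among thresholded divergent promoters, 6 had both genes in the same list, these 5 and rps-14 with rpl-36.

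Of 51 genes of the respiratory chain and the ATP synthase, 4 (7.84%) were nearest to a thresholded peak. These were cox-5A, cox-5B (74.5 in replicate 1 and 50.4 in replicate 2), the cytochrome c1 gene cyc-1 (73.4 and 51.7) and the complex I gene nuo-2 (48.4 and 48.8). Chaperone genes had 6 of 98 (6.12%), led by the constitutive HSP70 gene hsp-1 (85.0 and 83.1) and the J-domain protein gene dnj-28 (61.8 and 52.9), and crt-1, which encodes calreticulin, had 39.9 and 52.9. F44E5.4 was not in that list, which was made from name prefixes. The proteasome list had 2 of 33, pbs-7 and pbs-3, and neither overlapped a thresholded peak of replicate 1.

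The cell cycle and replication list had 7 of 161 (4.35%), led by cdc-48.1, the replication factor C gene rfc-4 (45.6 and 66.1) and the kinase gene cdk-4 (50.8 and 43.9). By replicate 2 alone the count was 7, but by replicate 1 alone it was 2. Chromatin regulators had 4 of 104, led by nurf-1 of the NURF remodelling complex (85.8 and 84.4), the histone acetyltransferase gene cbp-1 (69.99 and 58.0) and swsn-3 of the SWI/SNF complex (65.5 and 45.6). Vesicle traffic genes had 5 of 175. For the strongest of them, vps-39 (65.6 and 62.2), 75.3% of the 36-base words at the summit recurred elsewhere in the genome.

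The lists of neuronal identity, axon guidance, synapse, cilium and muscle genes had shares at or above the 1.23% of all genes, from counts of 1 or 2. Other lists that hold neuronal genes were below it, among them neuropeptide and insulin genes and ion channels and transporters (0.341%). Of 74 proneural and neuronal identity factors, sox-2 and the Groucho-type corepressor gene unc-37 (58.9 in replicate 1 and 36.8 in replicate 2) were nearest to a thresholded peak (2.70%). Axon guidance and adhesion had 2 of 75 (2.67%), the semaphorin gene mab-20 (47.6 and 66.1) and unc-76 (34.7 and 53.4). The synapse list had syd-2 alone (37.5 and 56.4) of 79 (1.27%), the cilium list daf-19 alone of 62 (1.61%), and the muscle list pat-4 alone (60.1 and 48.3) of 52 (1.92%). No thresholded daf-19 peak overlapped the conservative list, and by replicate 1 alone the cilium count was 0. No gene was nearest to a thresholded peak among 101 homeobox, 40 bHLH, 144 neuropeptide and insulin, 179 collagen and 23 glial genes. At a share of 1.23% lists of these sizes would hold few such genes or none, so nothing is read from these counts. Peaks of any rank were nearest to 20 homeobox genes (19.8%) and 9 neuropeptide and insulin genes (6.25%), against 13.0% of all genes.

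Several large gene families were at the low end. Of 1301 chemoreceptor genes 1 was nearest to a thresholded peak (srh-171, 65.7 in replicate 1 and 59.2 in replicate 2), as was 1 of 315 F-box genes (0.317%) and 1 of 274 nuclear hormone receptor genes (0.365%; nhr-48, 52.2 and 53.1). Some lists hold genes that do other things than their names say. Both genes of the sperm protein list, spe-39 and spe-48, are spermatogenesis genes and not major sperm proteins, and icd-1 in the metabolism list encodes a subunit of the nascent polypeptide-associated complex.

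**Figure D5:**
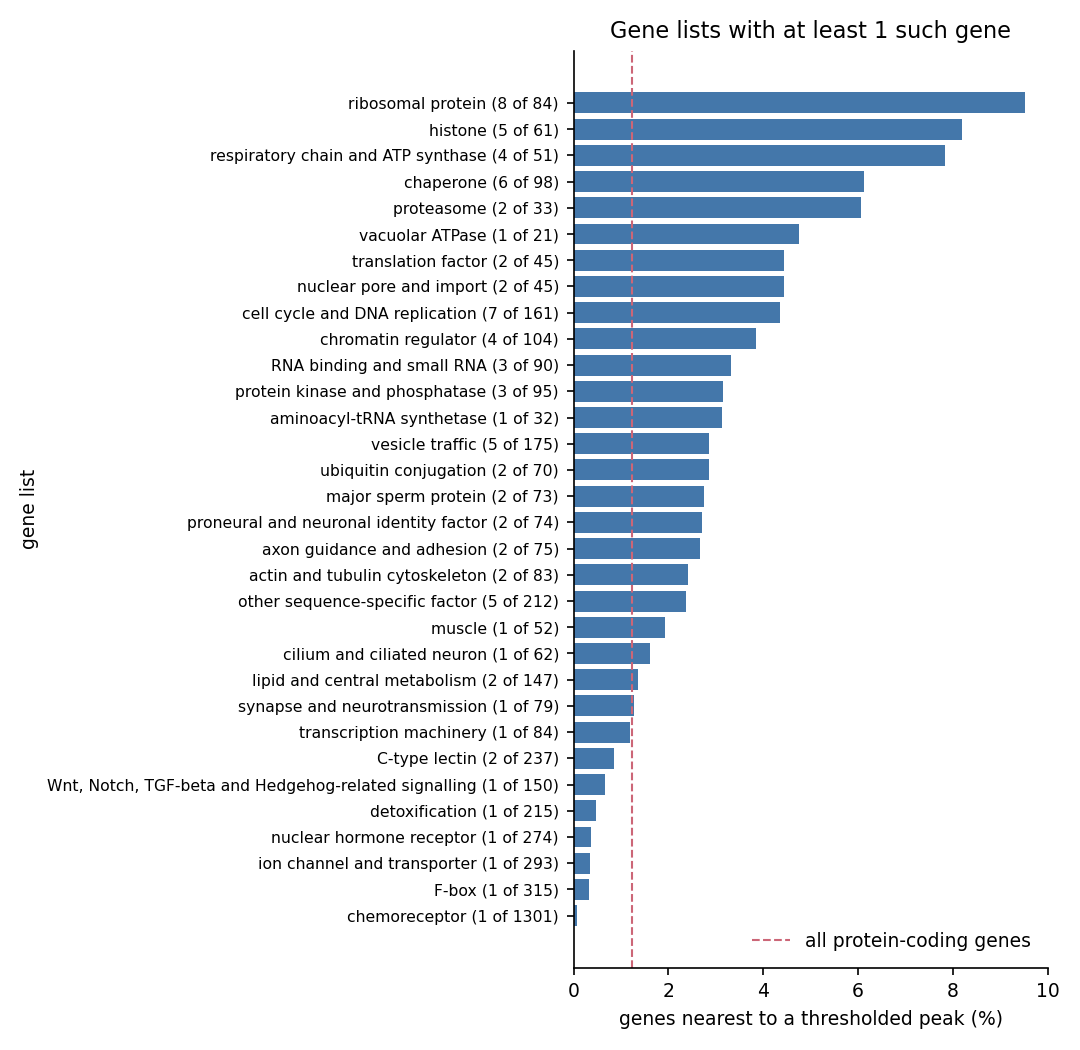
Percent of the genes of each list (x axis) that were nearest to a thresholded promoter peak, for the 32 lists with at least 1 such gene (y axis, with counts). The dashed line is the share of all protein-coding genes, 1.23%; ribosomal protein genes stand highest at 9.52% and chemoreceptor genes lowest at 0.0769%.

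The 3 members past the IDR value that are missing from the thresholded list lay upstream of Y80D4G.2, clec-9 and Y62E10A.3. The peak at Y80D4G.2 had the highest signal of all members, 409.3 in replicate 1 and 531.8 in replicate 2. In these windows 84.9% to 91.0% of the 36-base words recurred elsewhere in the genome, against over 50% in 4 of the 249 thresholded windows. At the threshold itself, the lowest −log10 IDR among thresholded members was 2.005 and the highest among those below was 1.995.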

How the data were processed

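The submitters deposited peak lists on the ce11 build, per the labels: a ranked and a thresholded list for each of 2 biological replicates, and, from both replicates together, 2 ranked lists, 1 thresholded and 1 conservative. The peak signal is the authors' value per deposited peak in an unstated scale, the deposited −log10 IDR ranks peaks, and the deposited summit offset gives the summit. The sources used here do not give the aligner, the caller or the read depth. Intervals cover counting error over peaks only. In the series' ranked lists, 4 signal columns without sample names were not used.

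Summits were placed on Ensembl release 115 (WBcel235) and NCBI WBcel235 sequence with Python 3.11.15, pandas 2.3.3 and scipy 1.17.1. The ranked list that holds every thresholded peak was used. Overlap between lists meant at least 1 bp. Shares were compared by two-sided Fisher's exact tests and each summit with its flank by McNemar's test (exact, two-sided), with a threshold of 0.05. The tests were checked on simulated data. Alternatives used other lists, windows, flanks, motif forms and each replicate alone.

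Members, gene lists and tests were chosen with earlier results of these data known. Genes named are sox-2, the 15 strongest thresholded members, both genes of the 8 strongest divergent ones, up to 3 per list and genes with 3 or more thresholded peaks; others were named after their values were seen, among them eel-1, gei-4, bet-2, ipla-3, C36E6.2 and B0495.9.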

Additional observations from a re-analysis of the deposited data

How the results depend on the processing

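Of 52 alternative settings of the compared results, 45 kept their direction and their side of the threshold, or for counts stayed within 1.5 times. With CTTTGT alone the summit exceeded its flank by 0.402 percentage points (no longer significant), and thresholded minus below-threshold members gave −1.33. Windows of 25 bp gave 3.01 for the latter, no longer significant. The difference in motif share between divergent and single promoters, −1.10 and not significant, became 3.45 in the conservative list and 2.40 for CATTGT alone, and 5.15 to 8.02 with 1 replicate left out, without reaching significance. The cause was not tested. Of 160 list counts under alternatives 43 moved by over 1.5 times, most of them counts of 1 to 3 genes. The replicate correlation was 0.493 with summits within 50 bp, an alternative chosen after seeing the data. No paired analysis was possible because the series holds 1 group. With depth unknown, a gene without a thresholded peak cannot be called unbound.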
